A study of Mus musculus with 24 samples.

Results

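The genes described here are the Wnt ligands, the Frizzled receptors that bind them, the secreted Dkk and Sfrp inhibitors and 7 further genes of the Wnt pathway, in tumors of the 8 BURP mouse bladder tumor lines. They were taken by name as the protein-coding genes whose symbol is Wnt, Fzd, Dkk or Sfrp followed by a number, together with Axin2, Lef1, Tcf7, Wif1, Lgr5, Rspo1 and Rspo3. The rule gave 44 of the 53465 genes in the table, namely 19 Wnt, 10 Fzd, 4 Dkk and 4 Sfrp genes and the 7 genes named singly. The rule uses names alone.

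Tumors of the bladder were induced in C57BL/6NTac mice with N-butyl-N-(4-hydroxybutyl)-nitrosamine (BBN), a bladder carcinogen given at 0.1% in the drinking water from 8 weeks of age for up to 36 weeks, and were then passed under the skin of sex-matched syngeneic mice. Total RNA of 24 tumors, 3 from each line, was sequenced after removal of ribosomal RNA. Of the lines, 6 were classed as basal/squamous (Ba/Sq), with BURP-12BaSq, BURP-17BaSq and BURP-18BaSq derived from males, and BURP-21BaSq as well as BURP-24BaSq and BURP-25BaSq derived from females, and the other 2, BURP-16SR (stroma-rich) and BURP-19NE (neuroendocrine-like), came from males. Each line came from the tumor of 1 donor mouse, and the stroma-rich and neuroendocrine-like classes have 1 line each. A difference of BURP-16SR or BURP-19NE from the Ba/Sq tumors is therefore a difference of a line. The fits for it pooled the 18 Ba/Sq tumors of 6 donors as independent samples, so that their p-values mix the spread within and between Ba/Sq lines. They hold no spread between donors of the stroma-rich or neuroendocrine-like class. Since bulk tumors were sequenced, fewer cells of a type and less RNA per cell cannot be told apart.

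Total counts ran from 9295708 to 25370320 per tumor, and a library could show no less than 0.11 to 1.28 CPM, the usual scale of counts relative to library size, taken as 3 counts and covering counting error only. The basal and squamous keratinocyte markers summed to between 9400 and 23400 CPM in the 18 Ba/Sq tumors and to at most 57.8 CPM in BURP-19NE and 10.6 CPM in BURP-16SR. In BURP-19NE the neuroendocrine markers summed to between 253.5 and 366.1 CPM, against at most 104 CPM in the Ba/Sq tumors, but the adhesion molecule Ncam1 made up 309.2 CPM of their mean, while Chga was at 0.0737 CPM and Neurod1 and Insm1 were at 0. The fibroblast markers differed most within BURP-16SR, where they summed to 8129, 21250 and 690.9 CPM in tumors C73-M10, C74-MNT and P5. In BURP-25BaSq, tumor C102-M30 had 61.9% of its counts on a ribosomal gene and the expression of tumor C102-M1 went against its label. Across 16248 genes its log2 levels had a correlation of 0.888 and 0.881 with the other 2 tumors of its line and of 0.964, 0.977 and 0.960 with those of BURP-21BaSq. Leaving both tumors out changed the number of the 44 genes called in each comparison by no more than 1.5 times, although the 2 calls of BURP-12BaSq then were 1 higher and 1 lower in place of 2 lower. The counts of genes without overlap and of the pathway lists were not recomputed without them.

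Wnt proteins are lipid-modified ligands that leave the cell with the help of the carrier Wls and bind a Frizzled receptor, alone or with the coreceptors Lrp5 and Lrp6. Through Lrp5 and Lrp6 they stabilise beta-catenin, which acts with the DNA-binding factors Lef1 and Tcf7, whereas ligands such as Wnt5a mostly signal without it through receptors such as Ror2. Sfrp proteins and Wif1 bind the ligands, Dkk proteins bind the coreceptors, and the R-spondins (Rspo) with their Lgr receptors keep Frizzled proteins at the cell surface. In the bladder, stromal cells make Wnt2 and Wnt4 in answer to Hedgehog from basal cells during repair of the urothelium.

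In means over tumors, the ligand RNA of the Ba/Sq class was led by Wnt4, that of BURP-19NE by Wnt5a, and that of BURP-16SR by Wnt7b. Levels of different genes are compared here only per length of exon, as CPM per kilobase of exon (RPKM). The 19 ligands summed to between 47.9 and 82.7 RPKM in the means of the 6 Ba/Sq lines, to 70.6 ± 21 RPKM in BURP-16SR and to 103 ± 22.6 RPKM in BURP-19NE (SD, n = 3). Wnt4 held from 25.3% of this sum in BURP-18BaSq to 49.3% in BURP-12BaSq, Wnt5a held 49.8% in BURP-19NE, and Wnt7b held 32% in BURP-16SR. Tumor by tumor, Wnt4 was the leading ligand in 10 of the 18 Ba/Sq tumors, Wnt5a in 4, Wnt10a in 3 and Wnt7b in 1. Wnt5a led in 3 of 3 tumors of BURP-19NE, while the 3 tumors of BURP-16SR were led by Wnt7b, Wnt5a and Wnt2, 1 each.

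**Figure D1:**
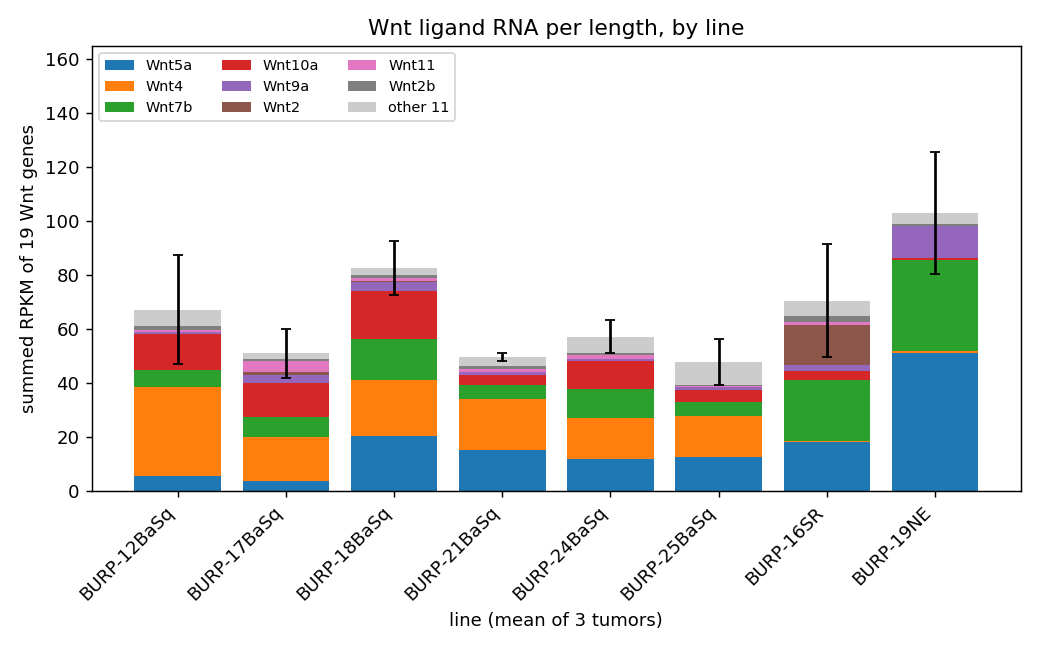
Summed level per length (RPKM, vertical axis) of the 19 Wnt genes in each of the 8 lines, as stacked means of 3 tumors, with the SD of the sum as bars; the 8 genes with the highest mean level are drawn apart from the other 11. Wnt4 fills 25.3% or more of the bar in the 6 Ba/Sq lines and is barely seen in BURP-16SR and BURP-19NE, where Wnt5a and Wnt7b take the largest places.

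Of the 44 genes, all had at least 1 count in some tumor, 21 had one in all 24 tumors, and 23 reached a mean of 1 RPKM over the 24 tumors. The highest means were those of Fzd6 (18.2 ± 8.84 RPKM), Wnt5a (17.4 ± 15.5), Wnt4 (15.1 ± 12.3), Sfrp1 (13.8 ± 19.2), Fzd1 (13.6 ± 6.56), Wnt7b (13.2 ± 10.4) and Fzd7 (12.1 ± 4.08; SD, n = 24), and neighbours in this order lay within their spread. At the other end, Dkk1, Dkk4, Wnt1, Wnt8a and Wnt9b had at most 5 counts in any tumor. A test of any difference among the 8 lines (edgeR, 1 coefficient per line) passed for 31 of the 36 genes with enough counts, where 76.7% of all genes tested passed. The 5 that did not pass were the receptors Fzd2 and Fzd9, the inhibitor Sfrp1, the feedback inhibitor Axin2 and the factor Lef1.

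**Figure D2:**
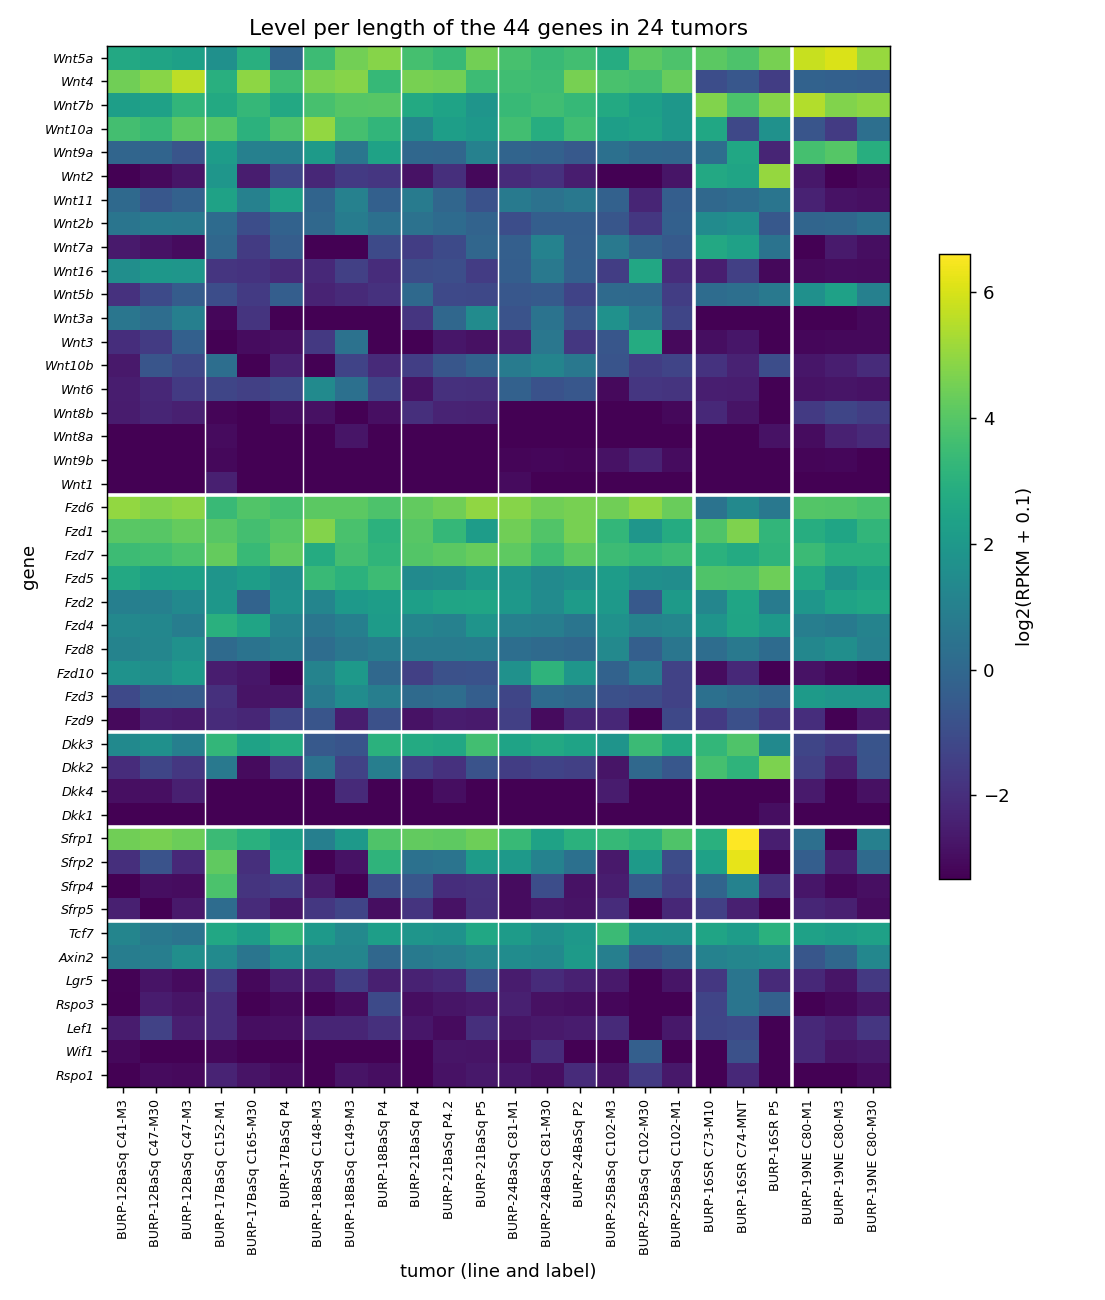
Level per length, as log2(RPKM + 0.1), of the 44 genes (rows, by family and then by mean level) in the 24 tumors (columns, by line); white lines part the families and the lines. Wnt4 and Fzd6 are bright across the Ba/Sq columns, and Dkk2 and Wnt2 are bright in the 3 columns of BURP-16SR.

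The same 18 Ba/Sq tumors served as the reference for BURP-19NE and for BURP-16SR, so that both sets of differences share their controls and are given side by side. A gene was called changed at an adjusted p under 0.05 (edgeR's quasi-likelihood test, Benjamini-Hochberg over all genes) and a fold above 2. In BURP-19NE, 6 of 34 tested genes were higher and 10 lower, which is 47.1% of those tested, where 24.3% of all genes were called (9.33% higher and 15% lower). In BURP-16SR, 10 of 35 were higher and 4 lower, or 40%, where 19.2% of all genes were called (10.5% higher and 8.62% lower). All 3 tumors lay outside the Ba/Sq range for 10 of the 34 genes in BURP-19NE and for 6 of the 35 in BURP-16SR, against 18% and 11.4% of all genes tested. The median log2 fold change of the tested genes was -0.75 in BURP-19NE, against -0.14 over all genes, and 0.5 in BURP-16SR, against -0.03. Wnt2 and Rspo3 had enough counts for the test in the comparison of BURP-16SR only, through the tumors of that line, and Wnt8b in that of BURP-19NE only, through the tumors of BURP-19NE. They are among the genes counted as higher above. The filter on counts also let in genes through the Ba/Sq tumors alone. In BURP-19NE these included Wnt3a, Wnt6, Wnt7a, Wnt11, Wnt16 and Fzd10, and in BURP-16SR Wnt3a and Fzd10, all counted as lower. Their counts in the line compared were too few for the test, so their printed fold changes and p carry the same limit.

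**Figure D3:**
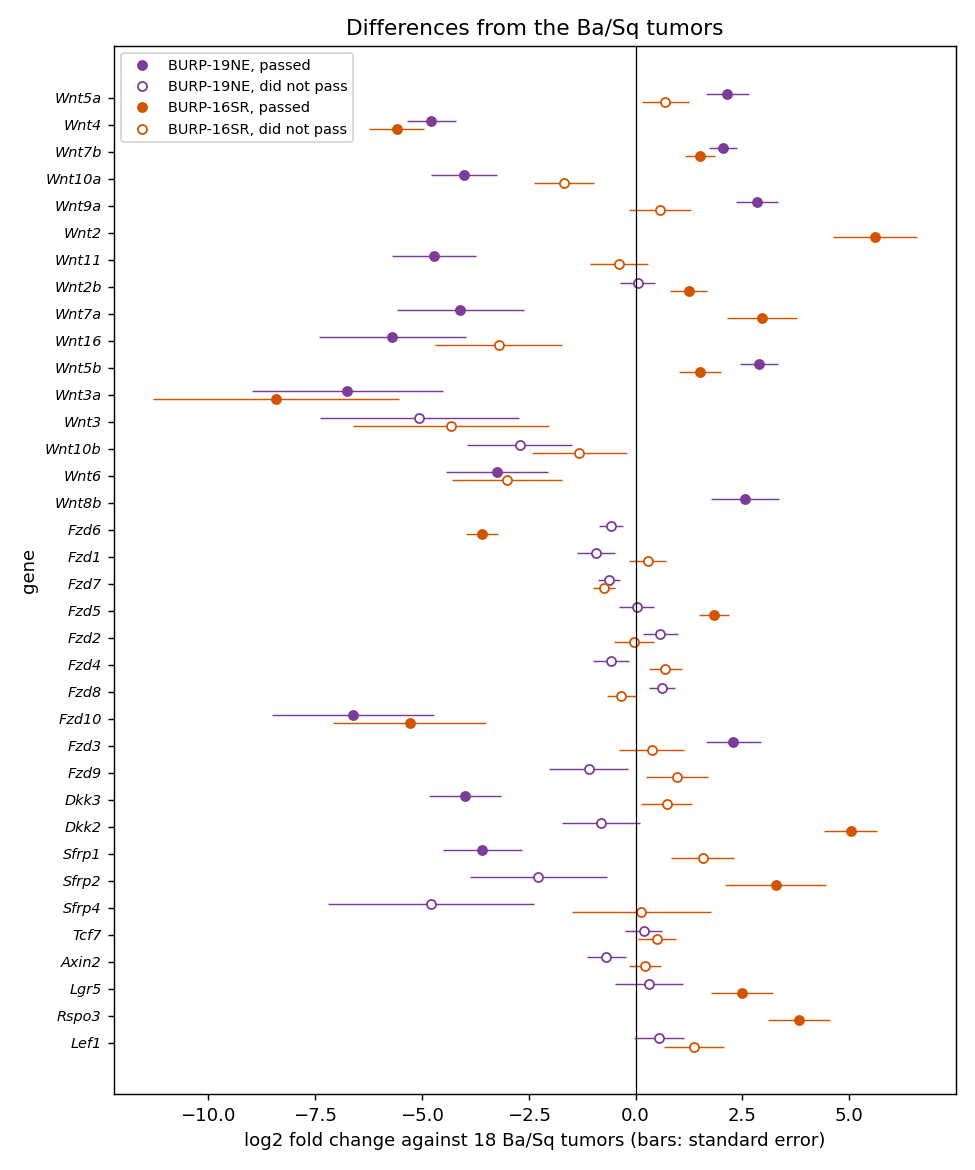
Log2 fold change against the 18 Ba/Sq tumors (horizontal axis, with the standard error as bars) of each gene tested, for BURP-19NE in purple and BURP-16SR in orange; filled points passed the test. Wnt4, Wnt3a and Fzd10 lie far to the left in both lines, Wnt2 and Dkk2 far to the right in BURP-16SR, and Wnt7a on opposite sides in the 2 lines. Wnt2 and Rspo3 in BURP-16SR and Wnt8b in BURP-19NE had enough counts for the test only through the line where they are high. Wnt3a and Fzd10 in both lines, and Wnt6, Wnt7a, Wnt11 and Wnt16 in BURP-19NE, had them only through the Ba/Sq tumors.

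The promoters of Wnt4, Wnt2 and Dkk2, genes with large differences, and of Wnt5b, which was higher in both lines, are shown as the sequence next to the genes the results turn on. They were chosen after the values were seen. Promoter sequences of 30 of the 44 genes were at hand from RefSeq (build GRCm38.p6), and those of Wnt5a, Wnt7b, Wnt10a, Fzd6, Dkk3 and Sfrp1 are not shown. Each is printed 5′ to 3′ on the strand of its gene and ends before the first base of the gene in both RefSeq and GENCODE. Capitals mark a match to AP-1, searched as TGACTCA, or to TCF/LEF, the site of Lef1 and Tcf7, searched as CTTTG followed by A or T and again by A or T, on either strand in both cases, and the matches do not overlap. The windows are chr4:137277385-137277488 (plus strand) for Wnt4, chr6:18030586-18030695 (minus strand) for Wnt2, chr3:132085042-132085291 (plus strand) for Dkk2 and chr6:119544348-119544597 (minus strand) for the most distant of the 3 starts of Wnt5b. The Wnt5b match reads TGAGTCA and lies 191 bases before the start.
Wnt4: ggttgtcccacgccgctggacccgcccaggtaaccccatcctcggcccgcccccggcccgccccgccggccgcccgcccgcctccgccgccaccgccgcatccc
Wnt2: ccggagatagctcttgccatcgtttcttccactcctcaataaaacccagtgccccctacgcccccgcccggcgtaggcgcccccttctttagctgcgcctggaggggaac
Dkk2: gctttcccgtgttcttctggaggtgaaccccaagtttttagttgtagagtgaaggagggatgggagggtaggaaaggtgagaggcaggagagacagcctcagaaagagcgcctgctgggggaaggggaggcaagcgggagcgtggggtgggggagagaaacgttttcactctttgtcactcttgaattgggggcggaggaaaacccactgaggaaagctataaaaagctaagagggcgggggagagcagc
Wnt5b: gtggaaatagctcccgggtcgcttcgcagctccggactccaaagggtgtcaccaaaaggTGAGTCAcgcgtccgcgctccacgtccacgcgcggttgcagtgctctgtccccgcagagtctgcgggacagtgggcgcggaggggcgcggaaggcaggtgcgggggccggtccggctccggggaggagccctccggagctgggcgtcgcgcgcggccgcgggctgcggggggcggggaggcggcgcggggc
In the full 250 bases before the start, the share of G and C was 85.2% for Wnt4, 63.6% for Wnt2, 55.6% for Dkk2 and 75.2% for Wnt5b, with a median of 52.4% over 32851 promoters. The AP-1 match in the Wnt5b window was the only one among the 30 genes, and 4.46% of all promoters held one. TCF/LEF matches stood before at least 1 start of 5 genes, Dkk1, Fzd7, Lef1, Wnt11 and Wnt5b, and in 14.8% of all promoters. Wnt4, Wnt2, Dkk2 and Axin2 held no match to either in these windows.

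Among the ligands, Wnt4, known for its part in the development of the kidney and the female reproductive tract, was lower in both lines. The gene (ENSMUSG00000036856.4) lies on chromosome 4 from 137277489 to 137299726. It was at 3.18, 3.05 and 2.86 CPM in the tumors of BURP-19NE and at 1.71, 2.27 and 1.05 CPM in those of BURP-16SR, and in the Ba/Sq tumors at between 31.4 and 205 CPM with a median of 87.3 CPM. All 6 tumors lay below all 18 Ba/Sq tumors. The log2 fold change was -4.78 ± 0.577 in BURP-19NE (SE; edgeR adjusted p = 1.98e-06) and -5.59 ± 0.638 in BURP-16SR (1.23e-06).

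Wnt3a, the ligand most used to set off beta-catenin signalling in culture, went the same way but from a far lower level. The 3 tumors of BURP-16SR had no count and those of BURP-19NE 1 count in all, while the Ba/Sq tumors ran from 0 to 8.67 CPM, with 4 of the 18 at 0. Against the floor of 3 counts over the group, Wnt3a in BURP-16SR was lower by at least 30.3-fold, and in BURP-19NE it was lower by a ratio with a counting interval from 27.2 to 5990. The groups overlapped, the calls (edgeR adjusted p = 0.024 and 0.0384) were lost without any 1 of the tumors of the line compared, where it rose to between 0.0662 and 0.0996 in BURP-19NE and between 0.108 and 0.114 in BURP-16SR, and the adjusted p was 1 in both with all 24 tumors in 1 fit.

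Wnt5a (ENSMUSG00000021994.15), the main ligand of signalling without beta-catenin, was at 429, 512 and 264 CPM in BURP-19NE and between 6.44 and 215 CPM in the Ba/Sq tumors, with no overlap. It was higher in BURP-19NE by 2.15 ± 0.5 on the log2 scale (edgeR adjusted p = 0.00238). In BURP-16SR it was at 132, 109 and 185 CPM, within the Ba/Sq range, and did not pass. Wnt7b, an epithelial ligand of skin, lung and kidney, was at 214.6, 130.5 and 148.2 CPM in BURP-19NE and 129, 68.1 and 135 CPM in BURP-16SR, against 17.2 to 79.8 CPM in the Ba/Sq tumors. The 3 tumors of BURP-19NE were clear of that range and tumor C74-MNT of BURP-16SR fell inside it. Wnt7b was higher by 2.04 ± 0.331 in BURP-19NE (edgeR adjusted p = 7.52e-05) and by 1.5 ± 0.354 in BURP-16SR (0.00362). Exons of Wnt5a, Wnt7b, Wnt11, Fzd5, Fzd6, Sfrp2, Axin2, Lef1 and Rspo3 overlap a gene on the other strand, and whether the counting used strand is not given in the sources used here, so that these 9 values may hold reads of the partner.

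Wnt5b, the close relative of Wnt5a, was at 8.02, 13.4 and 5.04 CPM in BURP-19NE, at 2.74, 2.97 and 4.07 CPM in BURP-16SR and at no more than 2.6 CPM in any Ba/Sq tumor. It was the only ligand whose tumors lay above all Ba/Sq tumors in both lines. The difference was 2.89 ± 0.448 in BURP-19NE (edgeR adjusted p = 4.35e-05) and 1.5 ± 0.486 in BURP-16SR (0.0274), and the second was lost without any 1 of the tumors of BURP-16SR (0.0699 to 0.169).

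Wnt9a and Wnt8b were called in BURP-19NE. Wnt9a, known for its part in joint formation, was at 41.9, 51.8 and 24.6 CPM there and at 1.69 to 17.3 CPM in the Ba/Sq tumors, a difference of 2.83 ± 0.496 (edgeR adjusted p = 0.000167). In BURP-16SR its tumors spread from 0.351 to 19.5 CPM and it did not pass, nor did the difference between both lines (adjusted p = 0.16). Wnt8b, a ligand of the embryonic forebrain, stayed near the floor with 0.764, 1.1 and 0.862 CPM in BURP-19NE and at most 0.525 CPM in the Ba/Sq tumors. It could be tested only because of its counts in BURP-19NE, so its p is not given. Its call was lost without any 1 of the tumors of BURP-19NE.

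The other ligands that were lower in BURP-19NE were Wnt10a, Wnt11, Wnt16, Wnt7a and Wnt6. Wnt10a, a ligand of teeth, hair and skin, was at 1.27, 0.579 and 2.81 CPM there and at 5.6 to 77.7 CPM in the Ba/Sq tumors, a difference of -4.01 ± 0.767 (edgeR adjusted p = 0.000401). In BURP-16SR it was at 14.7, 0.86 and 7.71 CPM, and its fold change of -1.68 ± 0.712 did not pass (0.0888), nor did the difference between both lines (0.106). Wnt11, which guides branching of the kidney duct, was at 0.382, 0.158 and 0.136 CPM in BURP-19NE and at 0.425 to 21.4 CPM in the Ba/Sq tumors, a difference of -4.71 ± 0.98 (0.000894). Wnt10a and Wnt11 stood clear of the Ba/Sq range in BURP-19NE.

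Wnt16, a regulator of cortical bone, had 2 counts in each tumor of BURP-19NE (0.0849, 0.105 and 0.0908 CPM), under the floors of 0.127, 0.158 and 0.136 CPM. It was at 0.522 to 26.8 CPM in the Ba/Sq tumors, with no overlap and a log2 fold change of -5.69 ± 1.72 (edgeR adjusted p = 0.0143). Counts this low leave the size of the fold change uncertain. Wnt6 (-3.23 ± 1.19, edgeR adjusted p = 0.0408) also had 2 counts in each tumor of BURP-19NE, at 0.105 CPM or less and under the same floors. It was at 0.044 to 5.62 CPM in the Ba/Sq tumors, so that the groups overlapped. The calls of Wnt16 and Wnt6 were lost without any 1 of the tumors of BURP-19NE, with adjusted p from 0.0589 to 0.0652 for Wnt16 and 0.119 to 0.131 for Wnt6. Wnt7a, which patterns the limb, moved in opposite directions in the 2 lines.

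In BURP-16SR, Wnt7a was at 19.8, 15.9 and 4 CPM and in BURP-19NE at no more than 0.21 CPM, while the Ba/Sq tumors ran from 0 to 6.36 CPM and overlapped with both lines. Against the Ba/Sq tumors it was higher by 2.96 ± 0.815 in BURP-16SR (edgeR adjusted p = 0.011), a call lost without tumor C73-M10 (0.0893), and had a log2 fold change of -4.1 ± 1.48 in BURP-19NE (0.037), a call lost without any 1 of its tumors (0.0721 to 0.145). Compared directly, Wnt7a was called higher in BURP-16SR than in BURP-19NE, whose tumors had 0, 4 and 2 counts. It could be tested there only because of its counts in BURP-16SR, so that fold change and p are not given.

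Wnt2, a ligand of mesenchyme in lung and other organs, was called higher in BURP-16SR. The gene (ENSMUSG00000010797.6) lies on chromosome 6 from 17988940 to 18030585. It was at 14.1, 12.2 and 74.1 CPM in tumors C73-M10, C74-MNT and P5, and 8.2 CPM in 1 Ba/Sq tumor (C152-M1 of BURP-17BaSq) was the highest of the 18, whose median was 0.168 CPM. The groups did not overlap. Wnt2 could be tested only because of its counts in BURP-16SR, so its fold change and p are not given. Wnt2b, its paralog, was at 11.2, 13 and 2.38 CPM in BURP-16SR and at 0.851 to 7.11 CPM in the Ba/Sq tumors. The call of Wnt2b (1.24 ± 0.426, edgeR adjusted p = 0.0366) was lost without tumor C73-M10 (0.201) or C74-MNT (0.276) of BURP-16SR, without tumor C148-M3 of BURP-18BaSq (0.0557), and without the 2 doubtful tumors of BURP-25BaSq (0.0654).

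The remaining ligands gave no call in either line. Wnt3 had 3 counts in each line and at most 20.8 CPM in the Ba/Sq tumors, and Wnt10b was at 0.17 to 0.454 CPM in BURP-19NE, 0.313 to 1.4 CPM in BURP-16SR and 0 to 7.32 CPM in the Ba/Sq tumors. Wnt1, Wnt8a and Wnt9b had too few counts for a test.

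**Figure D4:**
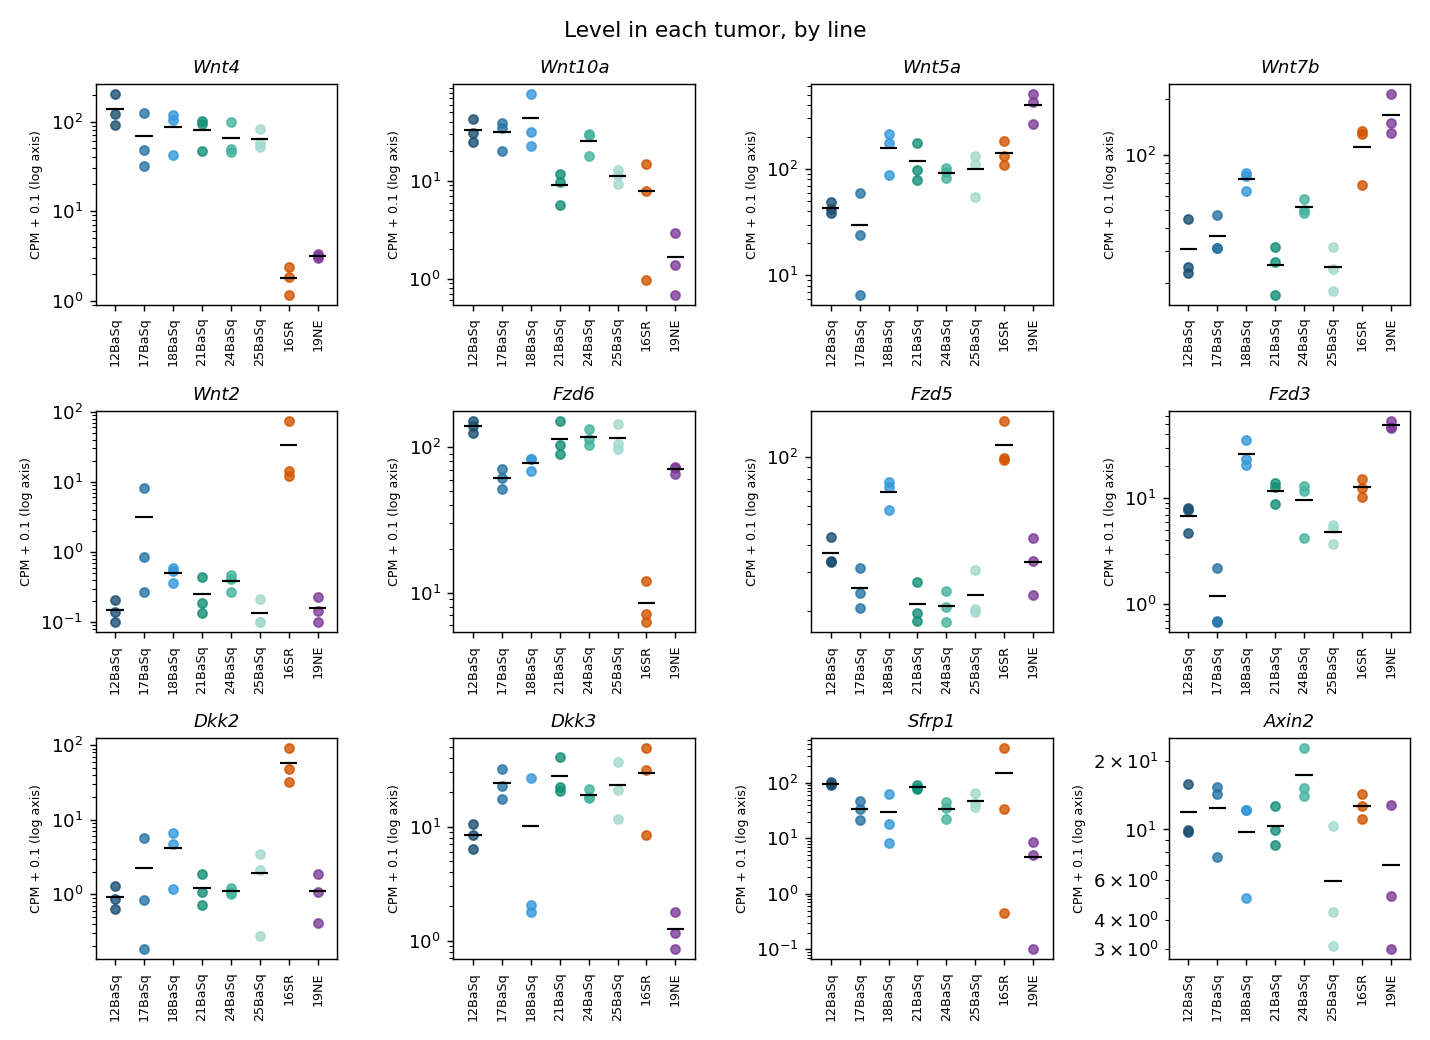
Level in CPM + 0.1 (log axis) of 12 genes in each tumor, by line, with the mean of the 3 tumors as a bar; each panel has its own axis. Wnt4 is low in BURP-16SR and BURP-19NE, Wnt2, Fzd5 and Dkk2 have their highest mean in BURP-16SR and Wnt5a, Wnt7b and Fzd3 in BURP-19NE, and Axin2 lies between 2.89 and 22.6 CPM in all 24 tumors.

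Of the ligands, 4 pairs are neighbours with no other protein-coding gene between them, and only some moved the same way. Wnt6 and Wnt10a lie 6.2 kb apart on chromosome 1, and both were called lower in BURP-19NE. Wnt3a and Wnt9a lie 16.2 kb apart on chromosome 11, and in BURP-19NE Wnt3a was at 0, 0 and 0.0454 CPM while Wnt9a was higher than in all Ba/Sq tumors. The other 2 pairs, Wnt9b with Wnt3 and Wnt10b with Wnt1, are 24.3 and 11.7 kb apart and gave no call in either line.

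Of the 10 Frizzled receptors, 1 was higher and 1 lower in BURP-19NE, where 24.3% of all genes were called, and 1 was higher and 2 lower in BURP-16SR, where 19.2% were. Fzd6, which orients hairs and cells within epithelia, was the leading receptor per length in 15 of the 18 Ba/Sq tumors and in the 3 tumors of BURP-19NE. The gene (ENSMUSG00000022297.15) lies on chromosome 15 from 39006034 to 39038188. It was at 6.17, 11.9 and 7.01 CPM in BURP-16SR, at 51.2 to 151.7 CPM in the Ba/Sq tumors and at 73.3, 72.4 and 65 CPM in BURP-19NE. Only the tumors of BURP-16SR fell outside the Ba/Sq range, and the difference was -3.59 ± 0.374 (edgeR adjusted p = 3.19e-07).

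Fzd5, a receptor of the gut lining and the eye, went the other way in BURP-16SR with 99.6, 96.9 and 147 CPM, above the 17.7 to 77.3 CPM of the Ba/Sq tumors. It was higher by 1.84 ± 0.355 (edgeR adjusted p = 0.000626), and in BURP-19NE it was at 42.7, 23.6 and 33.7 CPM and did not pass. Fzd3, which works with Fzd6 in planar polarity and in axon guidance, was at 53.4, 46.2 and 46.2 CPM in BURP-19NE, above the 0.579 to 34.9 CPM of the Ba/Sq tumors, and was higher by 2.28 ± 0.647 (0.00963). Compared directly, BURP-16SR had less Fzd6 (-2.98 ± 0.281, 0.00114) and Fzd3 (-1.86 ± 0.197, 0.00153) and more Fzd5 (1.86 ± 0.258, 0.00331) than BURP-19NE.

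Fzd10, a receptor of the developing nervous system and limb, was near 0 in both lines, with no more than 0.127 CPM in BURP-19NE and 0.391 CPM in BURP-16SR. The Ba/Sq tumors spread from 0 to 28.5 CPM, since the 3 tumors of BURP-17BaSq were also at or under 0.232 CPM, and so the groups overlapped. The fold changes of -6.61 ± 1.9 (edgeR adjusted p = 0.0104) and -5.28 ± 1.79 (0.0347) held the call unevenly. In BURP-19NE it was lost without tumor C80-M3 or C80-M30 (0.0531 each), and in BURP-16SR without any 1 of its tumors (0.0606 to 0.13). Fzd1 and Fzd7, receptors found in many tissues, were at 15.3 to 112 and 31 to 88.1 CPM in the Ba/Sq tumors and gave no call. Fzd7 in BURP-16SR passed the adjusted p (0.0405) and not the fold (-0.74). Fzd2, Fzd4, Fzd8 and Fzd9 gave no call in either line.

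Of the inhibitors, Dkk2 had the largest rise in BURP-16SR. Dkk2, which binds the coreceptors, is encoded on chromosome 3 from 132085292 to 132180304 (ENSMUSG00000028031.6). It was at 47.2, 32.4 and 91.7 CPM in BURP-16SR and at 0.0828 to 6.57 CPM in the Ba/Sq tumors, with no overlap, a difference of 5.03 ± 0.614 (edgeR adjusted p = 3.1e-06). In BURP-19NE it was at 0.976, 0.316 and 1.77 CPM, within the Ba/Sq range, and BURP-16SR was called higher than BURP-19NE. Between these lines Dkk2 could be tested only because of its counts in BURP-16SR, so that fold change and p are not given.

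Dkk3, a divergent member of the family, was called lower in BURP-19NE. It was at 1.06, 0.737 and 1.68 CPM there, at 31.2, 49 and 8.42 CPM in BURP-16SR and at 1.67 to 40.9 CPM in the Ba/Sq tumors. The lowest Ba/Sq values, 1.96 and 1.67 CPM, were those of 2 tumors of BURP-18BaSq, so that the groups just overlapped. The difference was -3.99 ± 0.837 (edgeR adjusted p = 0.000948). Per length, the Dkk family summed to 24.2 ± 2.74 RPKM in BURP-16SR, 6.1 ± 3.44 RPKM in the Ba/Sq tumors and 0.654 ± 0.354 RPKM in BURP-19NE (SD).

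Sfrp1, a soluble ligand-binding relative of the Frizzled receptors, was at 4.92, 0 and 8.35 CPM in BURP-19NE and at 8.1 to 101.99 CPM in the Ba/Sq tumors. The difference was -3.59 ± 0.924 (edgeR adjusted p = 0.00498), although 1 tumor of BURP-19NE reached the Ba/Sq range. In BURP-16SR it was at 34.2, 424 and 0.351 CPM in tumors C73-M10, C74-MNT and P5 and did not pass (1.56 ± 0.747, 0.13). The 3 tumors of that line thus held the highest value of all 24 and one of the lowest.

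Sfrp2, Sfrp4 and the receptor Lgr5 had the same order among those 3 tumors, and so did the fibroblast markers. Sfrp2 was at 10.9, 160 and 0 CPM in C73-M10, C74-MNT and P5, Sfrp4 at 3.43, 8.36 and 0.631 CPM, and Lgr5 at 2.14, 14 and 1.33 CPM, where the fibroblast markers summed to 8129, 21250 and 690.9 CPM. Sfrp2 was called higher in BURP-16SR (3.27 ± 1.17, edgeR adjusted p = 0.0447) and so was Lgr5 (2.49 ± 0.722, 0.0149). Without tumor C74-MNT the difference of Sfrp2 was -0.11 (0.976) and that of Lgr5 was 0.74 (0.632), and the call of Sfrp2 was lost in 14 of the 21 fits that left out 1 tumor. The part of the fibroblast content in these values was not tested.

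Dkk2 and Wnt2 had the opposite order. Tumor P5 of BURP-16SR, with the lowest fibroblast sum of the line, had the most Dkk2 (91.7 CPM) and the most Wnt2 (74.1 CPM), and Dkk2 stayed called without any 1 of the 3 tumors. Of the 32 genes with at least 10 counts in some tumor of BURP-16SR, 18 were highest in C74-MNT and 11 in P5. The same split over all genes was not counted, so these numbers cannot be read as particular to the Wnt genes. In the Ba/Sq tumors the highest fibroblast sum, that of C152-M1 of BURP-17BaSq, came with the highest Sfrp2 (39.2 CPM), Sfrp4 (57.4 CPM) and Wnt2 (8.2 CPM) among the 18. The same tumor was also the highest of the 18 in its sums of endothelial (444.3 CPM), adipocyte (365.9 CPM), macrophage (794.7 CPM), smooth muscle (146.3 CPM) and B cell (11.2 CPM) markers. In BURP-16SR 5 of 12 fibroblast, 5 of 8 endothelial, 4 of 8 smooth muscle and 7 of 7 B cell markers were called higher, where 10.5% of all genes were. Of the tested macrophage, adipocyte, T cell and skeletal muscle markers, 0 of 8, 0 of 5, 1 of 10 and 2 of 8 were called higher. The sums were 264.9 to 391.7 CPM for endothelial and 114.9 to 322.6 CPM for smooth muscle markers. Those of B cell markers were 321.2, 10.3 and 3.09 CPM in C73-M10, C74-MNT and P5. In the comparison of BURP-19NE with the same Ba/Sq tumors, only 4 of the 7 B cell markers had enough counts for a test. The part of these cell types in the values was not tested.

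**Figure D5:**
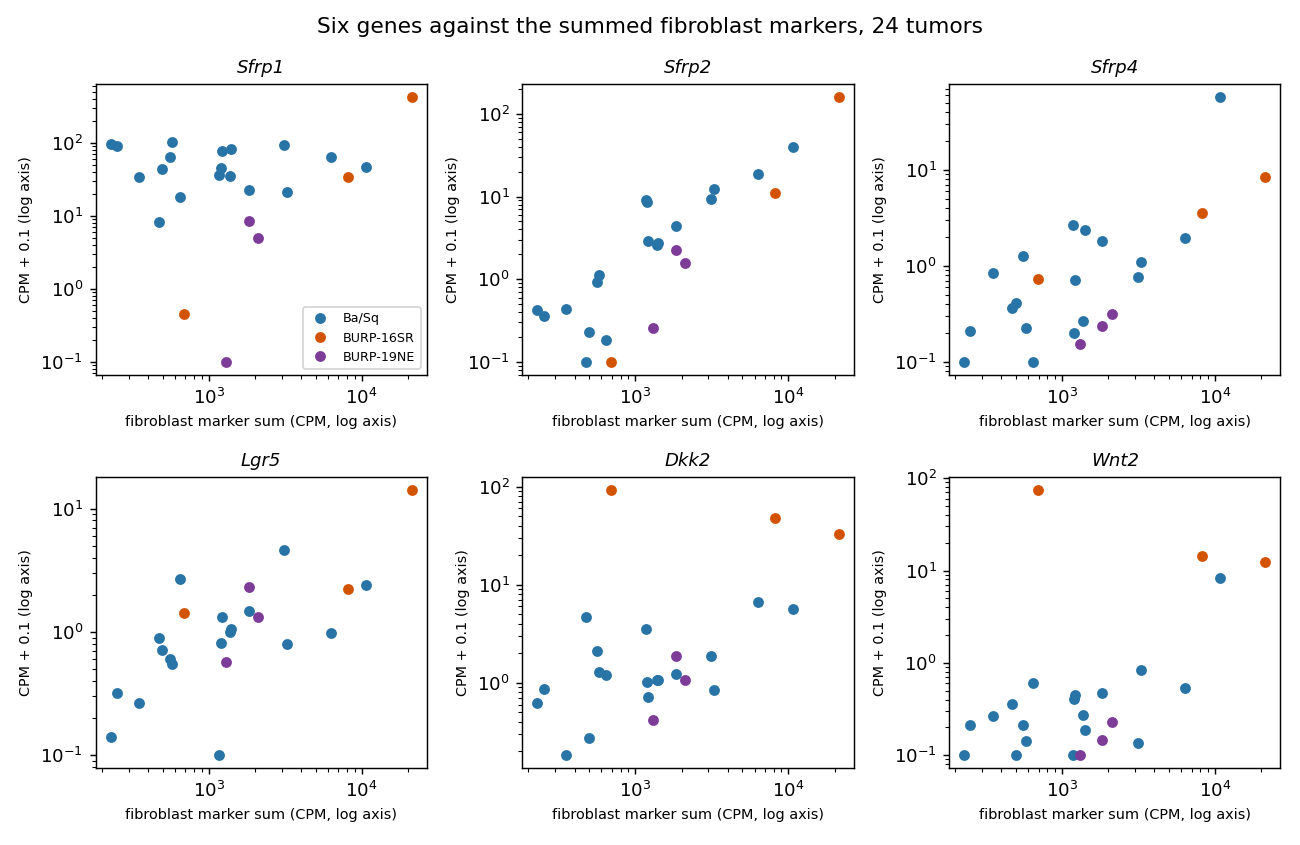
Level of 6 genes (CPM + 0.1, vertical log axis) against the summed level of 12 fibroblast markers (CPM, horizontal log axis) in the 24 tumors. Sfrp2 is high where the markers are high in Ba/Sq and BURP-16SR tumors alike, while Dkk2 and Wnt2 of BURP-16SR lie above the Ba/Sq tumors, and highest in the tumor at 690.9 CPM of markers.

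Of the 7 genes named singly, only Rspo3 and Lgr5 were called, both in BURP-16SR. Rspo3, which boosts Wnt signals through Lgr receptors, was at 0.943, 4.22 and 2.31 CPM in BURP-16SR and at 0 to 1.15 CPM in the Ba/Sq tumors, with 1 Ba/Sq tumor inside the range of BURP-16SR. It could be tested only because of its counts in BURP-16SR, so its fold change and p are not given. Axin2, a target of beta-catenin that also restrains it, was at 2.89, 5 and 12.7 CPM in BURP-19NE, at 11.1, 12.5 and 14.2 CPM in BURP-16SR and at 2.98 to 22.6 CPM in the Ba/Sq tumors. Its fold changes of -0.69 ± 0.451 and 0.21 ± 0.372 did not pass, and a difference was not detectable with these tumors.

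Tcf7 was at 11.9 to 13.4 CPM in BURP-19NE, 11.4 to 21 CPM in BURP-16SR and 3.45 to 28.4 CPM in the Ba/Sq tumors, and Lef1 did not exceed 3.13 CPM in any tumor. Neither factor passed in either line. Lgr5, apart from the 14 CPM of C74-MNT, did not exceed 4.54 CPM in any tumor. Wif1, at most 1.7 CPM, and Rspo1, at most 0.425 CPM, had too few counts for a test.

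Other genes of the pathway were counted in 6 lists, to be read against the 24.3% of all genes called in BURP-19NE and the 19.2% called in BURP-16SR. Of the 10 genes of ligand secretion and coreceptors, 2 were higher and 2 lower in BURP-19NE, and 1 was higher and 2 lower in BURP-16SR. Wls, the carrier that ligands need to leave the cell, was at 533.8, 560.7 and 519.1 CPM in BURP-19NE and 52.5 to 175.6 CPM in the Ba/Sq tumors, a difference of 2.36 ± 0.243 (edgeR adjusted p = 2.28e-07) with no overlap. In BURP-16SR it was at 61.6 to 79.2 CPM and did not pass. The coreceptor Ror1 was at 14.4, 24.6 and 24.4 CPM in BURP-16SR and at most 10.6 CPM in the Ba/Sq tumors, and was higher by 3.47 ± 0.626 (0.000323). In BURP-19NE it was at 5.69, 16.1 and 4.54 CPM and was higher by 2.15 ± 0.685 (0.0194), with overlap. Gpc3, a surface proteoglycan, was at 0.681 CPM or less in BURP-19NE and at 0.166 to 37.1 CPM in the Ba/Sq tumors, a difference of -5.63 ± 1.56 (0.00846). Ror2, the relative of Ror1, was the other one lower in BURP-19NE, at 0.637, 0.0526 and 0.636 CPM against 0.418 to 21.1 CPM in the Ba/Sq tumors, with overlap (-3.98 ± 1.31, edgeR adjusted p = 0.0228). In BURP-16SR Ror2 was at 0.982 to 11.1 CPM and did not pass. The call of Ror1 in BURP-19NE was lost without its tumor C80-M3 (0.274) and that of Ror2 without any 1 of the tumors of that line (0.0624 to 0.104).

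In the R-spondin and receptor turnover list, 1 of 4 tested genes was lower in BURP-19NE, and 1 of 5 was higher and 2 lower in BURP-16SR. Lgr4, a receptor for R-spondins, was lower in both. It was at 5.18, 4.84 and 7.81 CPM in BURP-19NE and 16.8, 20 and 17.6 CPM in BURP-16SR, against 16.9 to 164.5 CPM in the Ba/Sq tumors, with differences of -4.05 ± 0.657 (edgeR adjusted p = 7.39e-05) and -2.4 ± 0.578 (0.0043). Only BURP-19NE lay clear of the Ba/Sq range. Rspo2 was at 3.51, 3.05 and 51.7 CPM in C73-M10, C74-MNT and P5 of BURP-16SR and at most 0.11 CPM in any Ba/Sq tumor, with no overlap. It had from 0 to 2 counts in each Ba/Sq tumor and could be tested only because of its counts in BURP-16SR, so its fold change and p are not given. Like Dkk2 and Wnt2, it was highest in P5. Rnf43, the ligase that removes Frizzled proteins, was at 0.21 to 1.71 CPM in BURP-16SR and 0.271 to 41.4 CPM in the Ba/Sq tumors, with a difference of -3.68 ± 1.25 (0.0352) that lost its call without any 1 tumor of BURP-16SR (0.0888 to 0.131).

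Of the 12 other secreted or surface antagonists, 0 were higher and 3 lower in BURP-19NE, and 3 were higher and 1 lower in BURP-16SR, with 8 and 9 tested. Sostdc1, a secreted antagonist of Wnt and BMP ligands, had no count in any tumor of the 2 lines and reached 169.5 CPM in the Ba/Sq tumors, with a median of 48.3 CPM and 1 tumor at 0. Against the floor of 3 counts over the group, its mean was at least 1340-fold lower in BURP-19NE (edgeR adjusted p = 0.00038), and the bound for BURP-16SR was 805-fold (0.000846). Notum, which strips the lipid from Wnt proteins, had no count in BURP-19NE and was called lower there (0.0261), and the call was lost without any 1 tumor of that line (0.0793 to 0.0869). Its Ba/Sq level lay mostly in BURP-18BaSq, with a mean of 7.85 CPM, while the means of the other 5 lines were between 0.213 and 0.968 CPM and 2 Ba/Sq tumors were at 0, so that the groups overlapped. Igfbp4, which binds insulin-like growth factors and Frizzled proteins, was at 1452, 1701 and 2202 CPM in BURP-16SR and at most 678.9 CPM in the Ba/Sq tumors, and was higher by 3.88 ± 0.712 (edgeR adjusted p = 0.00038).

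Of the 20 feedback and target genes, 19 were tested. In BURP-19NE 3 were higher and 7 lower, with a median log2 fold change of -1.19 against -0.14 over all genes, and in BURP-16SR 5 were higher and 3 lower, with a median of -0.21 against -0.03. Twist1, a mesenchymal transcription factor, was at 56.6, 63.3 and 62 CPM in BURP-19NE and 2.13 to 38.8 CPM in the Ba/Sq tumors (2.2 ± 0.448, edgeR adjusted p = 0.000735). Ascl2, a stem cell factor of the gut, was under 0.1 CPM in the 3 tumors of BURP-16SR and at up to 1.43 CPM in the Ba/Sq tumors, a ratio of 10.9 on 2 counts with a counting interval from 3.01 to 89.7 (0.00964), and lost its call without tumor P5 (0.0561). Of 17 genes of the destruction complex around beta-catenin, 2 were higher and 0 lower in BURP-19NE and 1 was higher and 0 lower in BURP-16SR. Of 12 nuclear factors, 3 were higher and 3 lower in BURP-19NE and 0 were higher and 2 lower in BURP-16SR. Among them Pygo1, a cofactor of beta-catenin, was at 30.3, 26.4 and 15.5 CPM in BURP-19NE, against at most 9.53 CPM in the Ba/Sq tumors (2.83 ± 0.722, 0.0047).

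BURP-16SR and BURP-19NE were also compared with each other. Of 28 genes tested, 8 were higher and 4 lower in BURP-16SR, where 23.6% of all genes were called (14.8% higher and 8.86% lower), and the median log2 fold change was 1.09 against 0.06 over all genes. Beside those given above, Dkk3 was higher in BURP-16SR by 4.76 ± 0.739 (edgeR adjusted p = 0.00481) and Fzd4 by 1.31 ± 0.23 (0.00718). Wnt2, Rspo3, Wnt11 and Wnt7a were called higher as well. In BURP-19NE, Wnt2 had 3, 0 and 1 counts, Rspo3 had 0, 1 and 3, Wnt11 had 9, 3 and 3, and Wnt7a had 0, 4 and 2. These genes could be tested here only because of their counts in BURP-16SR, so their fold changes and p are not given. The differences of Wnt5a and Wnt5b were -1.42 ± 0.292 (0.0122) and -1.35 ± 0.401 (0.0412), and that of Wnt5b lost its call in the fit of all 24 tumors (0.0532) and without tumor C73-M10, C74-MNT, C80-M1 or C80-M3 (0.0937 to 0.121). Tumor C80-M1 of BURP-19NE had skeletal muscle markers of 605.3 CPM, against 3.42 and 5.81 CPM in the other 2, and without it 11 genes were called between the lines.

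Among the Ba/Sq lines, each was compared with the other 5, whose 15 tumors were likewise pooled as independent samples. Wnt3a in BURP-18BaSq, Fzd10 in BURP-17BaSq and Wnt7a in BURP-12BaSq had enough counts for the test only through the other lines. BURP-18BaSq had the most calls, with 5 of 33 genes higher and 2 lower, where 10.1% of all genes were called (5.97% higher and 4.09% lower). Of the 33, 4 did not overlap with the other Ba/Sq tumors, against 8.02% of all genes. Fzd5 was at 73.3, 57.5 and 77.3 CPM there and at a mean of 25.6 CPM in the other 15 tumors, with no overlap (1.46 ± 0.218, edgeR adjusted p = 0.000208). It was the only gene of these comparisons whose call held in every alternative. Wnt3a had no count in BURP-18BaSq and a mean of 2.82 CPM in the others, and was at least 35.6-fold lower, but its call (0.0218) was lost without any 1 of its tumors (0.0645 to 0.0944). Wnt6, at 5.62, 2.59 and 0.657 CPM in BURP-18BaSq (2.42 ± 0.627, 0.0136), lost its call without tumor C148-M3 (1.53, 0.276). Fzd3 was at 20.4, 34.9 and 23.2 CPM, above all 15 other tumors (1.97 ± 0.58, 0.027), and lost its call without C148-M3 (0.0897) or C149-M3 (0.145). Wnt9a and Wnt7b were the others higher and Wnt5b the other one lower.

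BURP-17BaSq had 2 genes higher and 2 lower of 33, where 1.07% of all genes were called (0.76% higher and 0.312% lower). Fzd10 was at 0.232, 0.166 and 0 CPM there, against a mean of 7.89 CPM in the other 15 tumors (-5.83 ± 1.33, edgeR adjusted p = 0.0321), and Fzd3 at 2.09, 0.579 and 0.594 CPM, against 11.8 CPM (-3.42 ± 0.774, 0.0312). Both stood below all other Ba/Sq tumors, as 2 of 33 genes did not overlap, against 2.4% of all genes, and both calls were lost without any 1 of the tumors of the line, with 0.0981 to 0.17 for Fzd10 and 0.0571 to 0.185 for Fzd3. Sfrp4 (4.73 ± 0.979, 0.0224) rested on tumor C152-M1, which was at 57.4 CPM while the others were at 0.745 and 0.991 CPM, and without it the difference was 0.23 (0.967). Wnt11 was the other gene called higher.

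In BURP-12BaSq 0 of 33 genes were higher and 2 lower, where 4.59% of all genes were called (2.1% higher and 2.48% lower). Tcf7 was at 5.72, 3.99 and 3.45 CPM there, below all other Ba/Sq tumors as the only gene of 33 without overlap (6.78% of all genes), against a mean of 12.7 CPM (-1.51 ± 0.422, edgeR adjusted p = 0.0364), and Wnt7a at no more than 0.203 CPM (-3.9 ± 1.16, 0.0484). Both calls were lost without any 1 of the tumors of the line, with adjusted p from 0.0912 to 0.22 for Tcf7 and 0.145 to 0.239 for Wnt7a. In BURP-21BaSq, BURP-24BaSq and BURP-25BaSq edgeR called 0 of 33 genes, where 0.0195%, 1.65% and 0.273% of all genes were called. Higher were 0.00975%, 0.945% and 0.263% of all genes and lower 0.00975%, 0.707% and 0.00975%. There, 2, 4 and 6 genes were at an unadjusted p under 0.05, as were 10.8%, 18.1% and 9.35% of all genes. DESeq2 called 1, 0 and 0 of 43 genes, where it called 370, 757 and 163 of 35984 genes. Without the 2 doubtful tumors of BURP-25BaSq, edgeR again called 0 of 33 genes in BURP-21BaSq and in BURP-24BaSq. Over all genes it then called 112 and 398 of 20475, in place of 4 and 339 of 20523.

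The 3 male Ba/Sq lines were compared with the 3 female ones on counts summed per line, since tumors of a line share a donor. None of 36 genes was called by edgeR, where 0% of all genes were called, and 2 were at an unadjusted p under 0.05, as were 6.41% of all genes. DESeq2 called none of the Wnt pathway genes described here either, although it did call other genes between the sexes. Ddx3y, a gene of the Y chromosome with 0 CPM in the female lines and 4.48 to 38.8 CPM in the male lines, also failed the test (edgeR adjusted p = 0.275). Wnt10a, with line means of 31.4 to 43.9 CPM in the male and 8.88 to 25.5 CPM in the female lines, was 1 of the 2 at an unadjusted p under 0.05 (edgeR adjusted p = 0.739), and Fzd5 was the other (0.772).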

How the data were processed

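Ribosomal RNA was removed from total RNA of 24 tumors and stranded libraries were sequenced as read pairs. The authors aligned the reads with STAR 2.6.0a to GRCm38 (GENCODE annotation), and what they deposited are RSEM 1.3.1 estimated counts for each gene, not normalized. RSEM shares reads that fit several genes, and 12.5% of all values and 78 of the 1056 values of these genes were not whole. Expected counts were rounded. Whether the counting used strand is not given in the sources used here, and 9 of the 44 genes overlap exons of a gene on the other strand. Symbols, positions and exon lengths came from another GENCODE release of GRCm38, which held 99.8% of the identifiers.

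Line and replicate came from the sample labels, and sex and class of each line from the study's description. Totals ran from 9295708 to 25370320, with a median of 17693147. Analyses used R 4.3.3, edgeR 4.0.16 (TMM, filterByExpr, glmQLFit and glmQLFTest without robust estimation) and DESeq2 1.42.0. CPM were scaled by TMM over all 24 tumors without a filter, and RPKM divided them by exon length. Each fit ran over all genes. Tests on simulated counts covered only a part of these fits. Values were given for the 7 genes named singly, the leading Wnt, Fzd, Dkk and Sfrp genes by RPKM, every gene called in BURP-19NE or BURP-16SR, up to 3 genes with the largest change in a single Ba/Sq line and, of the lists, up to 3 genes per direction. The genes, lists and tests were chosen with earlier results of these data known. Alternatives were DESeq2's size factors, DESeq2, no filter, all 24 tumors in 1 fit, omission of 2 doubtful tumors and of each tumor in turn.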

Additional observations from a re-analysis of the deposited data

How the results depend on the processing

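Of 53 counts of called genes under other settings, 43 stayed within 1.5 times the reported count. In BURP-12BaSq the count of 2 became 0 without a filter, 6 with DESeq2 and 6 with all 24 tumors in 1 fit, while the count over all genes went from 941 to 769, 2203 and 2370. In BURP-17BaSq the count of 4 became 9 with DESeq2 and 7 in the 24-tumor fit, while that over all genes went from 220 to 618 and 1466. In BURP-21BaSq the count of 0 became 1 with either, while that over all genes went from 4 to 370 and 707. The 24-tumor fit gave 4 in BURP-24BaSq and 2 in BURP-25BaSq, where it called 1681 and 647 of 21383 genes. With the 18 tumors as samples, 2 of 31 genes were called between the sexes, where 414 of 17922 genes were called. That fit takes the 3 tumors of a donor as independent, so its calls do not measure the spread between lines of a sex. Leaving out 1 tumor gave from 10 to 16 calls in BURP-19NE (10 without C80-M3), from 8 to 15 in BURP-16SR (8 without C73-M10 or C74-MNT), from 11 to 18 between these lines, 0 in BURP-12BaSq, from 0 to 3 in BURP-17BaSq, from 2 to 7 in BURP-18BaSq (2 without C148-M3, 3 without C149-M3), 0 in BURP-21BaSq, BURP-24BaSq and BURP-25BaSq and from 28 to 32 among the 8 lines, and leaving out 1 line gave 0 between the sexes. The causes were not tested. Of 55 called fold changes of the 44 genes, 1 reversed, that of Sfrp2 in BURP-16SR (-0.11 without C74-MNT, with a range from -0.11 to 3.83 over omissions of 1 tumor). Calls held in every alternative for 10 of 16 in BURP-19NE, 7 of 14 in BURP-16SR, 11 of 12 between these lines and 1 of 13 in single Ba/Sq lines. Of 18 calls of named genes of the pathway lists in BURP-19NE or BURP-16SR, 11 held in every alternative, 7 were lost in some and 0 reversed. No paired analysis was possible because passage numbers recur in several lines but mark no shared mouse. At the floor of 3 counts, genes such as Wnt1, Wnt9b and Dkk1 were not testable at this depth.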

Other observations

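A few genes were high in a single tumor of a Ba/Sq line. Wnt3 and Wnt16 were at 20.8 and 26.8 CPM in tumor C102-M30 of BURP-25BaSq, against 0.0559 and 1.63 CPM for Wnt3 and 0.614 and 1.1 CPM for Wnt16 in the other 2 tumors of the line. That library had 61.9% of its counts on a ribosomal gene and the highest floor, 1.28 CPM. In BURP-12BaSq, Wnt16 was at 12.6, 16.1 and 15.6 CPM, with no call. Dkk3 was at 26.7 CPM in tumor P4 of BURP-18BaSq and at 1.96 and 1.67 CPM in the other 2, and the fibroblast markers of these tumors summed to 6304, 472.4 and 645.7 CPM. These genes were chosen after their values were seen.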
